A study of Mus musculus with 8 samples.

Results

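Gene expression was compared between small intestinal CD4+ effector T cells that carried a short hairpin RNA against Mdr1 and cells that carried a control hairpin against CD8, in 4 of the 8 libraries of the study. The libraries were chosen by their titles: 2 labelled shMdr1 and 2 labelled shCD8, all from small intestine, matched by host. One matched pair came from hosts that have the ileal bile acid transporter Asbt (Asbt+/+) and the other from hosts that lack it (Asbt-/-). All hosts were Rag1-/- mice of C57BL/6 background, which lack lymphocytes with antigen receptors, so that the transferred cells were the only T cells. Asbt is the product of Slc10a2, and the host genotypes were Rag1-/- Slc10a2 +/+ and Rag1-/- Slc10a2 -/-. The hairpins were delivered with the LMPd retrovirus. About 10000 cells with a congenic marker were sorted per library, 6 weeks after transfer, from small intestinal lamina propria. The other 4 libraries came from spleen in the same design and enter here as a comparison. The sources used here give neither the age of the mice nor the number of animals behind a library.

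Mdr1 is an ATP-driven efflux pump of the plasma membrane that exports drugs, steroids and other hydrophobic compounds. In mice it is encoded by Abcb1a and its close relative Abcb1b. Bile acids reach the ileum from the gall bladder and are taken up there by Asbt, so T cells of the lamina propria live beside a flow of bile acids that spleen cells hardly meet. By its title, the study concerns the role of Mdr1 in keeping T cell populations stable where bile acids are present. The hosts without Asbt take up less bile acid into the ileal wall.

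Each hairpin, host and tissue had 1 library, so the Asbt+/+ pair and the Asbt-/- pair stand as the 2 replicates of the hairpin comparison. Whether separate animals stand behind each library is not in the labels, so p-values measure how far these libraries spread, and that spread may be technical. Total counts in small intestine ran from 1685225 to 2767105. The library labelled shCD8 Asbt+/+ stood apart: it had counts for 8456 genes, against 11345 to 12513 in the other 3 small intestine libraries, and 2482 of the 10000 tested genes were at 0 in it, against 237 to 803. Its mean Spearman correlation with the other 7 libraries was 0.696. In the library labelled shMdr1 Asbt+/+, 18.3% of counts were mitochondrial, against 7.06 to 8.62% in the other 3. The Asbt+/+ pair thus held both unusual libraries, and each result is given for the 2 pairs side by side, so that the Asbt-/- values stand without either of them. These were bulk libraries, in which fewer cells of a type and less RNA per cell cannot be told apart.

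Abcb1a, the gene targeted by the hairpin, had 21 counts (8.28 CPM, the count scaled for library size) in the library labelled shCD8 and 23 counts (14.8 CPM) in the library labelled shMdr1 of Asbt+/+ hosts. In Asbt-/- hosts it had 228 counts (91 CPM) with shCD8 and 102 counts (40.4 CPM) with shMdr1. The transcript was 2.25-fold lower with shMdr1 in the Asbt-/- pair, with a 95% interval from counting error alone of 1.77 to 2.87, but 1.78-fold higher in the Asbt+/+ pair, with an interval for the ratio of 0.943 to 3.39. The Asbt+/+ pair therefore goes against its labels at this gene, although at low counts, and its libraries are named by their labels below. The mean was 27.6 ± 18.1 CPM (SD, n = 2) in the libraries labelled shMdr1 and 49.6 ± 58.5 CPM (SD, n = 2) in those labelled shCD8, and the groups overlapped. The fitted hairpin effect was a log2 fold change of -0.22 ± 0.79 (SE; edgeR adjusted p of 0.961). Abcb1b had 45, 29, 75 and 45 counts in the order shCD8 and shMdr1 of Asbt+/+, then shCD8 and shMdr1 of Asbt-/-, and its reads may be shared with Abcb1a. In spleen the log2 CPM ratio of Abcb1a was -1.09 in Asbt+/+ and -0.41 in Asbt-/- hosts.

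Cd8a, which encodes the chain of the CD8 coreceptor that the control hairpin could act on, had 0 and 150 counts in the libraries labelled shCD8 and shMdr1 of Asbt+/+ hosts and 57 and 70 in those of Asbt-/- hosts. Cd8b1 had 6 counts in shCD8 Asbt-/- and 0 in the other 3. Slc10a2 had 1 count in all 4 libraries together, and the nuclear receptor gene Nr1i3 had none. The 12 genes that mark CD4 T cells (among them Cd3e, Cd4, Lck and Zap70) summed to 7506 to 11656 CPM and none was at 0, so the genes that define the sorted cell type were present. Of 14 epithelial genes, the sum was 235 CPM in shCD8 Asbt+/+, 613.6 CPM in shMdr1 Asbt+/+, 49.5 CPM in shCD8 Asbt-/- and 63 CPM in shMdr1 Asbt-/-, with 3, 4, 7 and 8 of the 14 at 0. Epcam and Krt8, which define epithelium, were among the genes at 0 in both Asbt-/- libraries. Other genes of the list had counts there and made up the sums of 49.5 and 63 CPM. The sum of 10 myeloid and antigen-presenting genes was 846.3 and 500 CPM in the Asbt+/+ pair and 1123 and 666.1 CPM in the Asbt-/- pair, lower in the libraries labelled shMdr1 in both. Csf1r, a macrophage receptor, had 30, 11, 28 and 0 counts, and Itgam, an integrin chain of myeloid cells, had 13, 2, 3 and 0. Of 9 tested genes of this list, 5 were lower and 0 higher in both pairs at any size, beside 20.7% and 25.1% of all tested genes. Cd68, a macrophage gene of the list, went the other way in the Asbt+/+ pair. With a correction for transcript length its log2 ratios were 3.53 in the Asbt+/+ pair and -0.18 in the Asbt-/- pair. Of the other cell types, 6 neutrophil genes summed to 10.7 to 182 CPM, 6 B and plasma cell genes to 0.798 to 17 CPM with Jchain at 0 in all 4 libraries, 7 natural killer and innate lymphoid genes to 78.3 to 169 CPM with Ncr1 at 0, 6 stromal genes to 1190 to 1668 CPM, mostly from Vim, and 5 erythroid genes to 38.3 to 105 CPM.

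No gene passed the edgeR quasi-likelihood test of the hairpin in small intestine (0 of 10000 tested, 0%, adjusted p under 0.05), and 481 genes had an unadjusted p under 0.05. The smallest edgeR adjusted p was 0.785, and it was shared by every gene whose hairpin log2 fold change is given below. With limma-voom 0 genes passed and 667 had an unadjusted p under 0.05. DESeq2 called 26 of 6898 genes with an adjusted p (0.377%), 21 higher and 5 lower in the libraries labelled shMdr1. All 26 were at least 2-fold the same way in both pairs, which the test favours, since disagreement between the pairs counts as spread. Of them, 6 had 0 counts in the library labelled shCD8 Asbt+/+. The edgeR fit of the 4 small intestine libraries alone, with 1 residual degree of freedom, called 2 genes, Il17f and Ubd. The tools thus part on whether any gene changed, and differences below are described as values.

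In each pair the ratio of shMdr1 to shCD8 was taken on a log2 CPM scale with a prior count of 2, which understates the difference of low genes. At least 2-fold higher were 37.2% of the tested genes in the Asbt+/+ pair and 16.7% in the Asbt-/- pair, and at least 2-fold lower were 18% and 18.8%. The median log2 ratio of all tested genes was 0.27 in the Asbt+/+ pair and -0.08 in the Asbt-/- pair, and the SD over genes was 2.18 and 1.26. In both pairs 619 genes (6.19%) were at least 2-fold higher and 387 (3.87%) at least 2-fold lower. With a prior count of 10 the counts were 313 and 207, and 242 of the 619 and 238 of the 387 had at least 100 counts. Another 814 genes (8.14%) were higher in the Asbt+/+ pair and lower in the Asbt-/- pair, and 285 (2.85%) showed the reverse (378 and 163 with a prior count of 10, and 459 for the reverse with a correction for transcript length), so that 1006 genes had the same and 1099 opposite directions. Across the 10000 genes the ratios of the 2 pairs had a Pearson correlation of -0.0048; genes are not independent replicates. Of the 619 genes higher in both pairs, 365 had 0 counts in the library labelled shCD8 Asbt+/+, and the part of that library in the count was not tested.

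**Figure D1:**
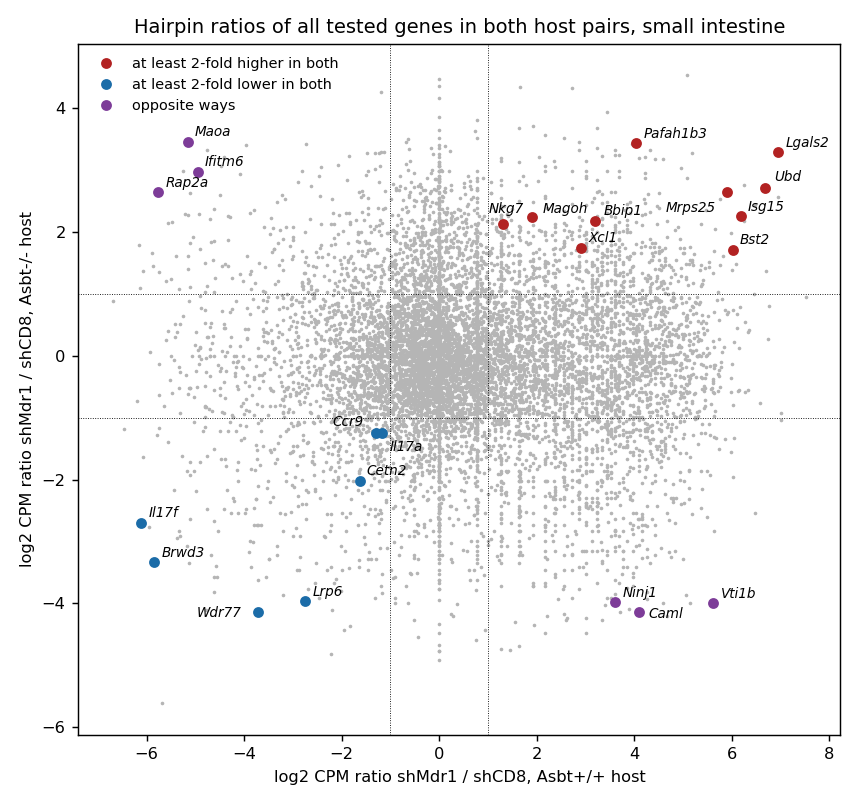
Log2 CPM ratio of shMdr1 to shCD8 in the Asbt+/+ pair (horizontal) against the Asbt-/- pair (vertical), libraries as labelled; each grey point is 1 of 10000 tested genes and dotted lines mark 2-fold. The cloud has no slope (Pearson correlation -0.0048), 619 genes lie in the upper right and 387 in the lower left beyond the lines, and named genes are coloured by direction.

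Type 17 helper cells defend the gut barrier and secrete interleukin 17A, interleukin 17F and interleukin 22. The 2 type 17 genes that were at least 2-fold lower in both pairs were Il17a and Il17f, which lie next to each other on chromosome 1. The 250 bases before each gene's start, from RefSeq (GRCm38.p6), are shown because both genes were lower together; capitals mark AGGTCA or its reverse complement TGACCT, a core sequence that nuclear receptors are known to bind.
Il17a, chr1:20730655-20730904, plus strand: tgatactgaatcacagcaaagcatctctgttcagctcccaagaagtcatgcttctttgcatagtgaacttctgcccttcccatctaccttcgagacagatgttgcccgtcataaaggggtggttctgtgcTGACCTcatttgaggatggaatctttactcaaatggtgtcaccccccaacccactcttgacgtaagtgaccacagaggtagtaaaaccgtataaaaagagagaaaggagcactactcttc
Il17f, chr1:20784271-20784520, minus strand: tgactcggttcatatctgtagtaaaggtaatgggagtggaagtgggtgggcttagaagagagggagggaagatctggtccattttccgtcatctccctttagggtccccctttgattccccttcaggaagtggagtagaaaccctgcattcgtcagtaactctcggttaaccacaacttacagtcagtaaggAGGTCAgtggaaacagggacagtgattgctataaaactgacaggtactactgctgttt
The match begins 120 bases before the start of Il17a and 58 bases before that of Il17f. Of 32851 promoters of the same length, 4607 (14%) hold AGGTCA on either strand, so a match is a description of these letters and no evidence of binding. The deposited counts carry no coordinates and were made on build mm9.

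Il17a, among the most abundant cytokine genes here, had 2374 CPM in the library labelled shCD8 and 1055 CPM in that labelled shMdr1 of Asbt+/+ hosts, and 1295 CPM with shCD8 and 545 CPM with shMdr1 in Asbt-/- hosts. Within each host the library labelled shMdr1 was the lower, by 2.25-fold (95% counting interval 2.13 to 2.38) and 2.38-fold (2.23 to 2.53), and the highest shMdr1 value lay below the lowest shCD8 value, as for 13.4% of all tested genes. The edgeR log2 fold change was -1.21 ± 0.31 (SE), with an unadjusted p of 0.00641 and an adjusted p of 0.785. Intervals of this kind cover counting error only, since the reads carry no molecular identifiers. In spleen the log2 CPM ratio of Il17a was -1.54 in Asbt+/+ and -0.97 in Asbt-/- hosts.

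Il17f had 494 counts (195 CPM) in the library labelled shCD8 and 3 counts (1.93 CPM) in that labelled shMdr1 of Asbt+/+ hosts, against 347 counts (138 CPM) with shCD8 and 52 counts (20.6 CPM) with shMdr1 in Asbt-/- hosts. Its level was 101-fold lower in the first pair (34.4 to 492 from counting error) and 6.72-fold lower in the second (5.01 to 9.18). The groups did not overlap, as for 13.4% of all tested genes lower with shMdr1. The log2 fold change was -4.33 ± 1.05 by edgeR, which did not pass, and DESeq2 gave an adjusted p of 0.00113. In spleen its log2 CPM ratios were -0.04 and 1.58. The small intestine effect minus the spleen effect was -5.12 ± 1.38 (log2), with an unadjusted edgeR p of 0.0078 and an adjusted p of 1.

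The other type 17 genes did not share this pattern. Of 19 tested genes in that list, 0 were at least 2-fold higher and 2 lower in both pairs, beside 6.19% and 3.87% of all tested genes. Past 2-fold in opposite directions were 3, as were 1099 of all 10000 tested genes, and 0 passed the edgeR hairpin test. The median log2 ratio of the list was 0.05 in the Asbt+/+ pair and -0.45 in the Asbt-/- pair, beside 0.27 and -0.08 for all genes. Il22 had 636 and 600 CPM in the Asbt+/+ pair and 2309 and 745 CPM in the Asbt-/- pair, a 3.1-fold lower level in the latter alone; its reads may be shared with Iltifb, which had 13, 91, 313 and 347 counts. Cxcl3, a neutrophil-attracting chemokine, had 394 and 404 CPM against 583 and 112 CPM in the same order. Csf2, which encodes the growth factor GM-CSF, had 400 and 151 CPM against 43.1 and 114 CPM, so its ratio was 2.64-fold lower in the Asbt+/+ and 2.65-fold higher in the Asbt-/- pair. Ccr6, a homing receptor of type 17 cells, had 1, 29, 125 and 33 counts.

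Regulatory T cells restrain gut inflammation through the transcription factor Foxp3 and, in part, interleukin 10. Foxp3 had 113 counts (44.6 CPM) in the library labelled shCD8 and 0 in that labelled shMdr1 of Asbt+/+ hosts, which is at least 23.1-fold lower against a floor of 3 counts in that library. In Asbt-/- hosts it had 40.3 CPM with shCD8 and 22.6 CPM with shMdr1, 1.78-fold lower (1.28 to 2.51). Il10 had 156 counts and 1 count in the Asbt+/+ pair, a ratio of 95.8 (17 to 3810 from counting error), and 100 and 89 counts in the Asbt-/- pair. Neither gene passed the edgeR hairpin test (adjusted p of 0.785 for each), and in spleen Foxp3 had log2 ratios of -2.33 and -1.76. Of 17 tested regulatory T cell genes, 2 were higher and 7 lower in both pairs at any size, beside 25.1% and 20.7% of all tested genes. None of the 17 was past 2-fold the same way in both pairs, beside 1006 of all 10000 tested genes. Ctla4, an inhibitory receptor, was the most abundant of them and had 1650 and 1006 CPM in the Asbt+/+ pair and 1272 and 968 CPM in the Asbt-/- pair. Il2ra, the high-affinity interleukin 2 receptor chain, had log2 ratios of 0.13 and -0.28.

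Nkg7 and Xcl1 stood at the other end. Nkg7 encodes a membrane protein of cytotoxic granules. It had 1019 and 2519 CPM in the libraries labelled shCD8 and shMdr1 of Asbt+/+ hosts and 465 and 2047 CPM in those of Asbt-/- hosts. Both shMdr1 values were above both shCD8 values, as for 16.7% of all tested genes. The mean was 2283 ± 334 CPM (SD, n = 2) with shMdr1 and 742 ± 392 CPM (SD, n = 2) with shCD8. The log2 fold change was 1.72 ± 0.40, with an adjusted p of 0.785 by edgeR and 0.0228 by DESeq2. Xcl1, a chemokine that draws cross-presenting dendritic cells, had 69 and 526 CPM in the Asbt+/+ pair and 210 and 705 CPM in the Asbt-/- pair. It was 7.62-fold (6.46 to 9.02) and 3.37-fold (3.05 to 3.72) higher in the libraries labelled shMdr1, and DESeq2 gave an adjusted p of 0.0171. Both transcripts are short, 881 and 523 nt, a class that was higher as a whole in the Asbt-/- pair (described with the transcript lengths).

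The rest of the type 1 and cytotoxic list, in which T-bet (Tbx21) drives interferon gamma, was mixed. Of its 22 tested genes 1 (Nkg7) was at least 2-fold higher and 0 lower in both pairs, beside 6.19% and 3.87% of all tested genes. The medians of the list were 0.56 and 0.10. Tbx21 had 17.7 and 30.8 CPM in the Asbt+/+ pair and 19.6 and 49.9 CPM in the Asbt-/- pair, with a log2 fold change of 1.07 ± 0.75. Ccl5, an abundant chemokine of effector T cells, had 2159 and 4337 CPM against 3292 and 5975 CPM, with log2 ratios of 1.01 and 0.86. Its shMdr1 values lay above its shCD8 values without overlap, as for 16.7% of all tested genes. Ifng had 377 and 931 CPM in the Asbt+/+ pair and 1111 and 645 CPM in the Asbt-/- pair, 2.47-fold higher in the first and 1.72-fold lower in the second. Tnf, an inflammatory cytokine, had 31.5 and 253 CPM in the Asbt+/+ pair and 185 and 211 CPM in the Asbt-/- pair. The difference between hosts thus lay mainly in the low value of the library labelled shCD8 Asbt+/+. Ccl3 had 315 and 229 CPM in the Asbt+/+ pair against 159 and 682 CPM in the Asbt-/- pair, and Ccl4 had 1523 and 951 CPM against 587 and 3122 CPM. Both chemokines were higher with shMdr1 in the Asbt-/- pair and lower in the Asbt+/+ pair. Their transcripts are 766 and 660 nt long.

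**Figure D2:**
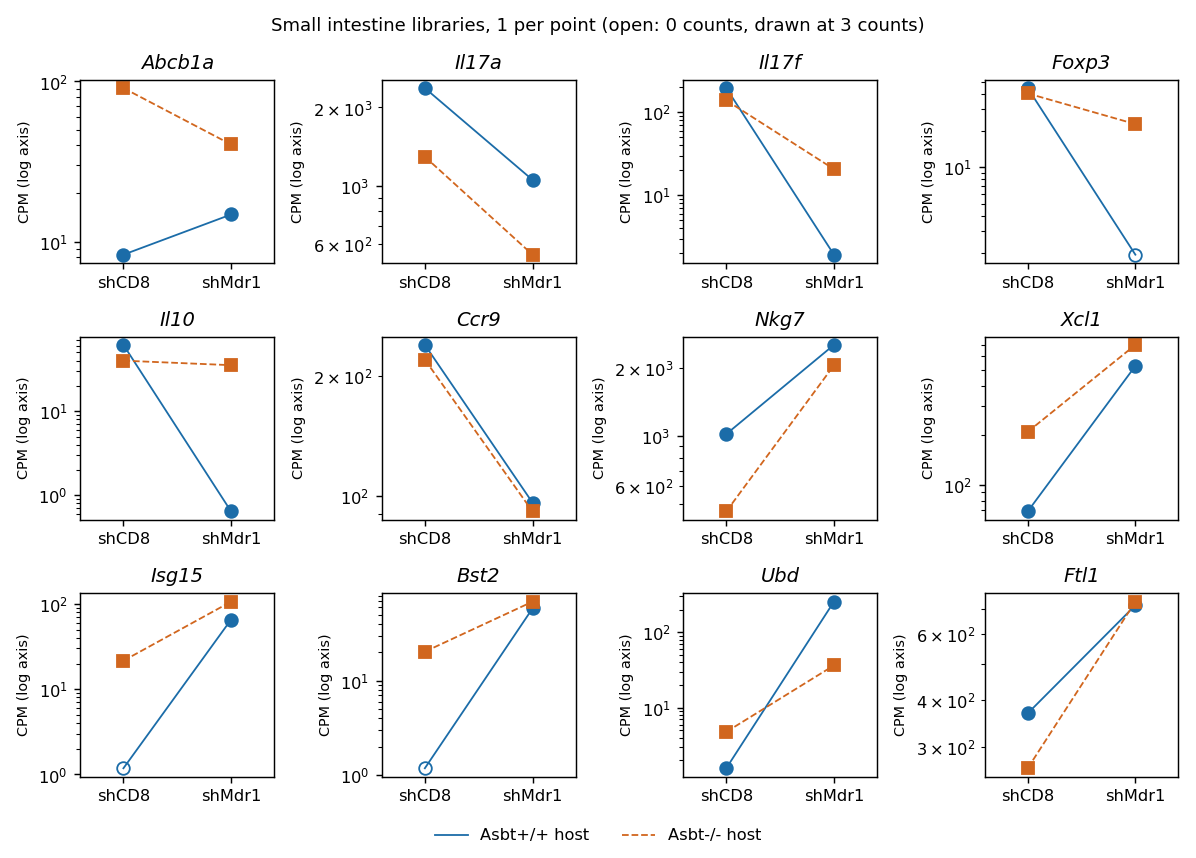
CPM of 12 genes in each small intestine library (log axis that does not start at 0), shCD8 at the left and shMdr1 at the right as labelled, with a line for each host; open symbols had 0 counts and stand at 3 counts. Il17a, Il17f and Ccr9 slope down and Nkg7, Xcl1, Isg15, Bst2, Ubd and Ftl1 slope up in both hosts, while Abcb1a slopes down in Asbt-/- hosts and up in Asbt+/+ hosts.

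Interferon-stimulated genes are switched on through a promoter element bound by STAT and IRF factors, whose core was searched as GAAA, any 2 bases, and GAAA again, on both strands. Of 25 tested genes of this list, 2 were at least 2-fold higher in both pairs, a share near the 6.19% of all tested genes. They were Isg15, a ubiquitin-like modifier, and Bst2, a surface protein that tethers budding viruses. Their 250 bases before the gene start, from RefSeq (GRCm38.p6), are shown because both hold the element; capitals mark overlapping matches as 1 run.
Isg15, chr4:156200819-156201068, minus strand: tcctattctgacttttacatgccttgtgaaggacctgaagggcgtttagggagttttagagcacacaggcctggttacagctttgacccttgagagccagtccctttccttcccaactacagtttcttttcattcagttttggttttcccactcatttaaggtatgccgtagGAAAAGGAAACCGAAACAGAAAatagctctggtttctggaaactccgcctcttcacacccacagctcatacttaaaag
Bst2, chr8:71537473-71537722, minus strand: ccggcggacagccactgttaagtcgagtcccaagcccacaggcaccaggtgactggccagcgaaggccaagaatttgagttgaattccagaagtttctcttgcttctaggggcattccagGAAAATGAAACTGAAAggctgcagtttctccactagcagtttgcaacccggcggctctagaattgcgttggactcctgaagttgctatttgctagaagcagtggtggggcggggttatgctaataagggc
Matches begin 78, 72 and 66 bases before the start of Isg15 and 130 and 124 bases before that of Bst2. The element occurs on either strand in 978 of 32851 promoters (2.98%).

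Isg15 had 0 counts in the library labelled shCD8 and 102 counts (65.5 CPM) in that labelled shMdr1 of Asbt+/+ hosts, at least 55.3-fold higher, and 54 counts (21.5 CPM) with shCD8 and 268 counts (106 CPM) with shMdr1 in Asbt-/- hosts, 4.93-fold higher (3.67 to 6.73). Bst2 had 0 and 91 counts in the Asbt+/+ pair, at least 49.4-fold higher, and 51 and 174 counts in the Asbt-/- pair, 3.39-fold higher (2.47 to 4.72). Neither passed the edgeR test (adjusted p of 0.785), while DESeq2 gave adjusted p-values of 0.0211 and 0.0396. In the library labelled shCD8 Asbt+/+ these were 2 of 2482 tested genes at 0, and whether they were low there or missed was not tested. The other interferon-stimulated genes did not share the pattern, with list medians of -0.27 in the Asbt+/+ pair and 0.11 in the Asbt-/- pair. Ifit1 had 66.6 and 19.9 CPM in the Asbt+/+ pair and 4.79 and 25.4 CPM in the Asbt-/- pair, and Ifitm3 had 328 and 104 CPM against 71 and 258 CPM, opposite directions in each case. Ifitm genes resemble each other and may share reads. Ubd, a ubiquitin-like gene induced by interferon gamma and tumour necrosis factor, had 4, 398, 12 and 92 counts, 162-fold (62.8 to 597) and 7.61-fold (4.15 to 15.3) higher in the libraries labelled shMdr1.

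Among genes of iron storage and antioxidant defence, none of the 24 tested was past 2-fold the same way in both pairs, beside 1006 of all 10000. At any size 9 were higher and 2 lower in both, beside 25.1% and 20.7% of all tested genes. The ferritin light chain Ftl1 had 368 and 718 CPM in the Asbt+/+ pair and 263 and 734 CPM in the Asbt-/- pair, with a mean of 726 ± 11.5 CPM (SD, n = 2) in the libraries labelled shMdr1 and 315 ± 74.8 CPM (SD, n = 2) in those labelled shCD8. The heavy chain Fth1 had 2640 and 4802 CPM against 2268 and 4805 CPM. Gpx4, which detoxifies lipid peroxides, had 99.4 and 194 CPM against 73 and 233 CPM. These 3 genes were singled out after their values were seen. For each the libraries labelled shMdr1 lay above those labelled shCD8 without overlap, as for 16.7% of all tested genes, with edgeR log2 fold changes of 1.22 ± 0.32, 0.97 ± 0.32 and 1.32 ± 0.39 that did not pass (adjusted p of 0.785). Hmox1, the haem-degrading enzyme often used to read oxidative stress, had 0, 1, 21 and 0 counts. Txn1, thioredoxin, had 1846 and 1755 CPM in the Asbt+/+ pair but 513 and 2856 CPM in the Asbt-/- pair. Ddit3, a transcription factor of the integrated stress response also called CHOP, had 80.4 and 159 CPM against 46.3 and 160 CPM, while its list of 15 stress response genes had medians of -0.23 and -0.10.

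Ccr9, the receptor that guides T cells to the small intestine, had 239 and 96.3 CPM in the libraries labelled shCD8 and shMdr1 of Asbt+/+ hosts and 219 and 91.5 CPM in those of Asbt-/- hosts. It was 2.48-fold (2.07 to 2.99) and 2.4-fold (2.05 to 2.81) lower, with a log2 fold change of -1.29 ± 0.67 and an adjusted edgeR p of 0.785. Ccr9 and Xcl1 were the 2 of 21 tested gut homing and residency genes past 2-fold the same way in both pairs. The same held for 1006 of all 10000 tested genes. Itgae, the integrin chain that holds cells at epithelium, had log2 ratios of -0.14 and -0.16, and Itgb7, part of the gut homing integrin, of 0.15 and -0.24. Ccr2, a receptor for inflammatory chemokines, had 258 and 37.2 CPM in the Asbt+/+ pair against 136 and 223 CPM in the Asbt-/- pair.

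Single members of the survival and metabolic lists were at least 2-fold lower in both pairs, as were 3.87% of all tested genes. Xiap, an inhibitor of caspases on the apoptosis list, had 124, 30, 103 and 47 counts, 2.54-fold and 2.21-fold lower in the libraries labelled shMdr1. Hk1, which starts glycolysis, had 203, 53, 155 and 51 counts, 2.35-fold and 3.06-fold lower, and 12 of 15 tested glycolysis genes had a fitted hairpin effect below 0, as did 42.1% of all tested genes. Fdft1, squalene synthase of the cholesterol pathway, had 99, 12, 64 and 9 counts, 5.07-fold and 7.16-fold lower. The cholesterol list as a whole had medians of -0.23 and -0.73. Of its 18 tested genes, 4 were past 2-fold in opposite directions in the 2 pairs, as were 1099 of all 10000 tested genes. None of these genes passed the edgeR hairpin test. H2-Ab1, a class II antigen presentation gene on the myeloid list, had 275, 77, 528 and 251 counts, and the sum of that list was lower in both libraries labelled shMdr1. Reg3b and Reg3g, antimicrobial lectins of epithelium that may share reads, had 134, 276, 2 and 30 counts and 140, 355, 0 and 14 counts. Of 9 tested epithelial genes, these 2 were past 2-fold the same way in both pairs, and 2 others had opposite directions. Of all 10000 tested genes, 1006 were past 2-fold the same way and 1099 in opposite directions. The epithelial sum includes Reg3b and Reg3g, so its higher value in the library labelled shMdr1 of each pair is not separate from theirs. The part of epithelial RNA in their difference was not tested.

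Mitochondrially encoded transcripts were higher in both pairs for 9 of 10 tested genes (25.1% of all tested genes), with medians of 1.06 and 0.31, beside the 18.3% mitochondrial share of the library labelled shMdr1 Asbt+/+. The gene mt-Rnr2, the large mitochondrial ribosomal RNA, had 24810 and 93241 CPM in the Asbt+/+ pair and 27341 and 44191 CPM in the Asbt-/- pair. Nuclear-encoded respiratory genes had medians of -0.16 and 0.17, and cytosolic ribosomal proteins of -0.22 and 0.26. Cox5a, a subunit of cytochrome c oxidase, had 577 and 379 CPM in the Asbt+/+ pair against 80.2 and 722 CPM in the Asbt-/- pair. Cell cycle genes had medians of 0.54 and 0.23. Of 32, 3 were at least 2-fold higher and 1 lower in both pairs, beside 6.19% and 3.87% of all tested genes. Rrm2, a ribonucleotide reductase subunit needed for DNA synthesis, was that lower gene, with 120, 15, 238 and 114 counts. The mitotic checkpoint genes Bub1 (0, 3, 0 and 18 counts) and Bub1b (0, 9, 15 and 46 counts) and the cyclin Ccna2 (3, 7, 73 and 155 counts) were the higher ones. Past 2-fold the same way in both pairs were 1006 of all 10000 tested genes. Of 16 genes of the NF-kB pathway 0 were, and of 20 immediate early genes, also 0. The same held for 11 heat shock genes (medians 0.30 and -0.27), 15 inhibitory receptors (0 and -0.08), 19 genes of lymphoid homing and memory (0.10 and -0.08) and 9 type 2 genes (-0.31 and -0.31). Of 17 bile acid receptor and target genes 4 could be tested, with medians of -0.18 and -0.50, and 10 were at 0 in all 4 libraries, among them the bile acid receptors Nr1h4 and Gpbar1. The 25 tested apoptosis genes had medians of 0.45 and 0.16. Tnfrsf10b, a death receptor, was the 1 gene of them at least 2-fold higher in both pairs, beside 6.19% of all tested genes. It had 0, 4, 16 and 51 counts.

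**Figure D3:**
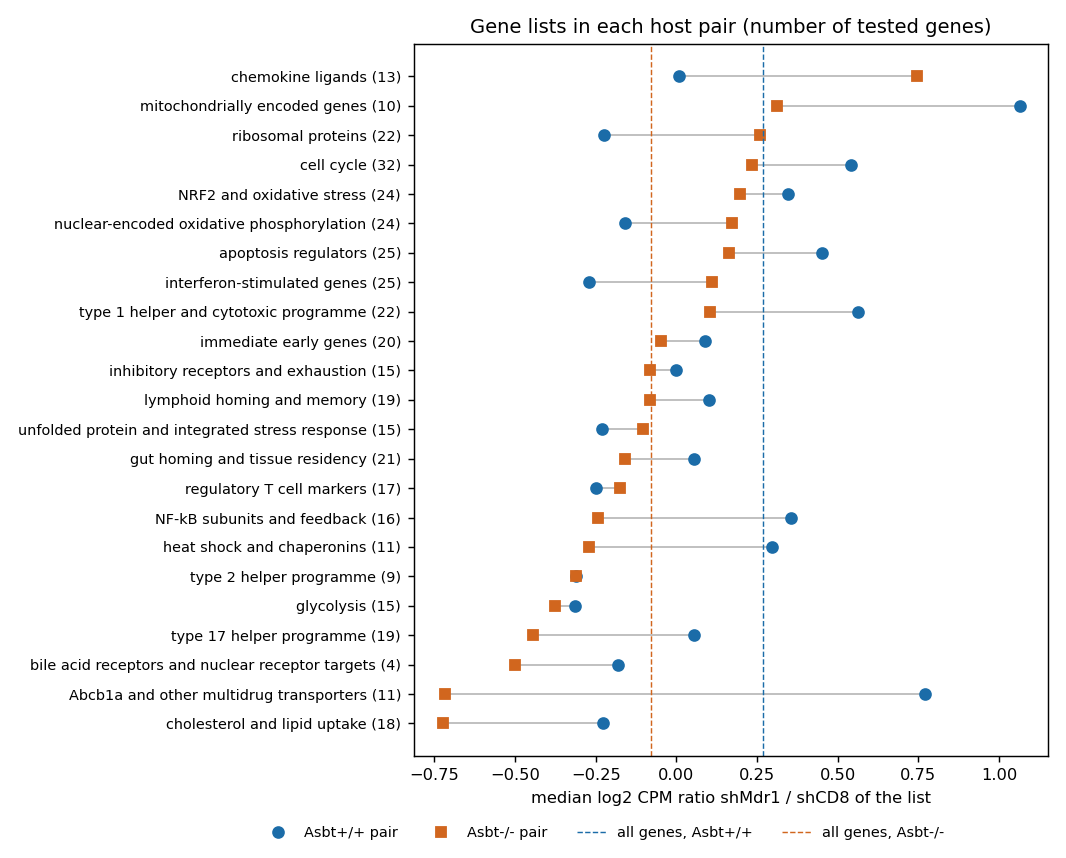
Median log2 CPM ratio of shMdr1 to shCD8, libraries as labelled, over the tested genes of each list (their number in brackets) in the Asbt+/+ pair (circles) and the Asbt-/- pair (squares), with dashed lines at the medians of all tested genes (0.27 and -0.08). Medians lie on opposite sides of 0 for all tested genes and for several lists, among them the multidrug transporters (0.77 and -0.72). The type 17 helper programme (0.05 and -0.45) lies below the median of all tested genes in both pairs.

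The 5 genes with the smallest edgeR p in each direction had the same direction in both pairs. Their choice favours this, since disagreement between the pairs enters the spread of the fit. Bbip1, a subunit of the BBSome of primary cilia, had 31.9 and 300.4 CPM in the libraries labelled shCD8 and shMdr1 of Asbt+/+ hosts and 76.2 and 350 CPM in those of Asbt-/- hosts. It was 9.4-fold (7.41 to 12.1) and 4.59-fold (3.92 to 5.4) higher, with a log2 fold change of 2.71 ± 0.39 and an unadjusted p of 0.000248 by edgeR, and an adjusted p of 0.00047 by DESeq2. Magoh, a core protein of the exon junction complex, had 129 and 485 CPM against 149 and 712 CPM, with a log2 fold change of 2.08 ± 0.32. Med28 of the Mediator complex, the protease inhibitor Cst3 and the mitochondrial release factor gene Ict1 followed, with log2 fold changes of 1.85 ± 0.32, 1.83 ± 0.32 and 1.87 ± 0.37. In spleen the log2 ratios of Bbip1 were -0.09 and 0.15 and those of Magoh 0.30 and -0.04.

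The lower genes were Cetn2, Brix1, Dtwd2, Il17f and Brwd3. Cetn2, a centrin of centrioles and DNA repair, had 292 and 93.7 CPM in the Asbt+/+ pair and 247 and 60.2 CPM in the Asbt-/- pair, with means of 77 ± 23.7 CPM (SD, n = 2) in the libraries labelled shMdr1 and 269.6 ± 31.4 CPM (SD, n = 2) in those labelled shCD8. Brix1, a ribosome assembly factor, had 355, 51, 256 and 83 counts. Their log2 fold changes were -1.84 ± 0.35 and -1.86 ± 0.43. Dtwd2 had 222, 1, 20 and 0 counts and Brwd3 224, 1, 41 and 2, so their fitted values depend on the prior count. DESeq2 called Dtwd2, Il17f and Brwd3, together with 2 gene models without a proper name, but neither Cetn2 nor Brix1.

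Ranked by the smaller of their 2 ratios among genes with at least 100 counts, the genes higher in both pairs were Pafah1b3, Fuom, Lgals2, Zswim7, Klre1, Zfp746, U2af1l4, Ubd, Cystm1, Mrps25, Smarcad1 and Nupr1. Of these 12, 7 had 0 counts in the library labelled shCD8 Asbt+/+. Pafah1b3, a catalytic subunit of platelet-activating factor acetylhydrolase, had 0, 22, 8 and 110 counts, at least 11.9-fold higher in the Asbt+/+ pair and 13.7-fold (6.69 to 32.4) higher in the Asbt-/- pair. Lgals2, a galectin, had 1 and 250 counts in the Asbt+/+ pair, a ratio of 407 (72.4 to 16136), and 1 and 30 counts in the Asbt-/- pair, a ratio of 29.8 (4.95 to 1215). Klre1, a killer lectin-like receptor, had 0, 47, 6 and 59 counts, and Mrps25, a mitochondrial ribosomal protein, had 3, 195, 34 and 226. The chromatin gene Rbbp4 had 0 and 47 counts in the Asbt+/+ pair and 0 and 51 in the Asbt-/- pair, at least 25.5-fold and 16.9-fold higher, and was called by DESeq2 with an adjusted p of 0.0126.

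The genes lower in both pairs by the same ranking were Wdr77, Tef, Brwd3, Dtwd2, Elac2, Akr1c13, Tmem159, Cyb5d2, Zfp369, B3galt6, Lrp6 and Il17f. Wdr77, a partner of the arginine methyltransferase PRMT5, had 92, 3, 38 and 0 counts, 18.8-fold lower (6.25 to 93) in the Asbt+/+ pair and at least 12.8-fold lower in the Asbt-/- pair. Lrp6, a Wnt coreceptor, had 57, 4, 49 and 1 counts. Tef, a clock-controlled transcription factor, had 113, 4, 26 and 0. Each of these 3 had more counts in both shCD8 libraries than in either library labelled shMdr1, which their ranking favours. On the CPM scale the same held for 13.4% of all tested genes. Of the 12, 7 had 0 counts in at least 1 library labelled shMdr1.

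Transcript length moved with the Asbt-/- ratios. The 526 genes whose longest annotated transcript measures 500 to 1000 nt had a median log2 ratio of 0.73 in the Asbt-/- pair, and 43.5% of them were at least 2-fold higher, while genes of other lengths had medians of -0.27 to -0.09. In the Asbt+/+ pair the same genes had a median of 0.06. This class made up 5.41% of tested genes, 9.44% of those higher in both pairs and 1.32% of those lower in both, and 9 of the 20 higher DESeq2 genes with a known length had transcripts of at most 1000 nt, beside 7.17% of all tested genes. With each pair's length trend subtracted, an alternative chosen after seeing the data, the log2 ratios of Nkg7 were 0.85 and 1.70, of Xcl1 2.40 and 1.31, of Magoh 1.43 and 1.78, of Ftl1 0.50 and 1.07, of Fth1 0.33 and 1.19 and of Gpx4 0.50 and 1.28. Those of Il17a were -1.67 and -1.48, and in the Asbt-/- pair Isg15 had 1.80 and Bst2 1.26. The part of length in the differences was not tested further.

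**Figure D4:**
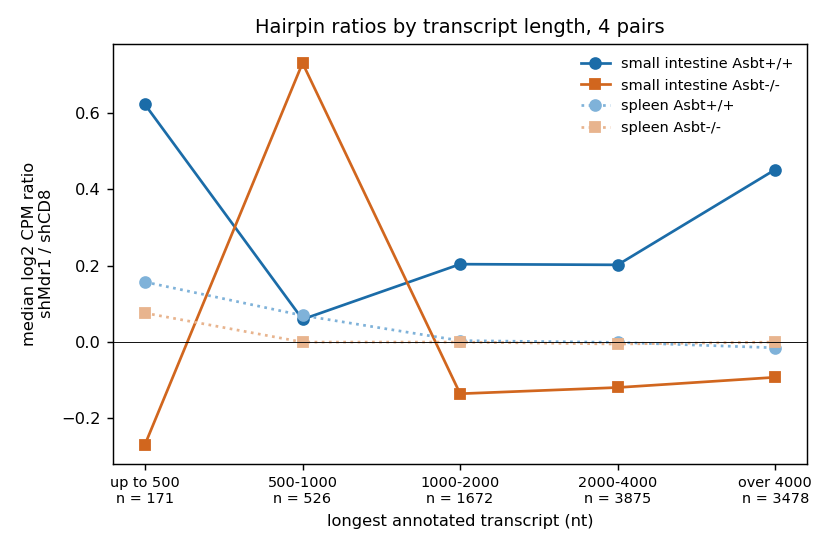
Median log2 CPM ratio of shMdr1 to shCD8, libraries as labelled, by the length of the longest annotated transcript, for 4 pairs of 1 tissue and host; n is the number of tested genes in a class. The 526 genes of 500 to 1000 nt have a median of 0.73 in the small intestine Asbt-/- pair, above the other pairs.

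The hairpin effect was then compared between hosts. The edgeR test of the difference called 957 genes (9.57%) with a more positive and 2217 (22.2%) with a more negative effect of shMdr1 in Asbt-/- than in Asbt+/+ hosts. With 1 library per combination this test has 1 residual degree of freedom, which rests on the spleen libraries, so the spread of intestinal libraries does not enter it. Of the 3174 called genes, 1048 (33%) had 0 counts in the library labelled shCD8 Asbt+/+, as did 2482 of the 10000 tested genes. A host difference common to both tissues is another quantity, and for it edgeR called 0 genes and 119 had an unadjusted p under 0.05. A host difference found in intestine alone counts as spread in that fit, so it cannot decide on the intestinal difference. DESeq2 called 960 and limma-voom 1608 in the fit of the former kind. The calls say that the 2 intestinal pairs differed by more than the spleen libraries vary, and the part of the host was not tested.

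The genes with the widest opposite ratios and at least 100 counts show how the 2 pairs differed. Higher in the Asbt+/+ pair and lower in the Asbt-/- pair were Caml, Vti1b, Cxcl5, Tmem161b, Ninj1 and Ciapin1. Caml, a signalling protein of the endoplasmic reticulum, had 0, 23, 91 and 3 counts. Vti1b, a SNARE protein of vesicle fusion, had 1, 99, 145 and 7 counts, so shCD8 Asbt-/- and shMdr1 Asbt+/+ were the high libraries. Ninj1, which mediates plasma membrane rupture, had 2, 31, 128 and 6. The reverse was seen for Maoa, Ifitm6, Slc10a7, Mptx1, Rap2a and Apmap. Maoa, monoamine oxidase A, had 80, 0, 0 and 23 counts, at least 16.4-fold lower in the Asbt+/+ pair and at least 7.61-fold higher in the Asbt-/- pair. Rap2a, a small GTPase, had 123, 0, 3 and 31, and Slc10a7, a distant relative of the bile acid transporters, had 111, 8, 3 and 35. The 12 were chosen for this difference between the pairs, so it was not tested on them.

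Named T cell genes were among the calls of that edgeR test, as were 31.7% of all tested genes. The spread in that test rests on the spleen libraries, so only the fitted differences are given. The difference in log2 hairpin effect, Asbt-/- minus Asbt+/+, was 2.57 for Ccl3 and 3.09 for Ccl4. It was 2.80 for Csf2, -2.09 for Ifng and -2.81 for Tnf. For Il22 it was -1.55 and for Cxcl3 -2.42. Il17f had a value of 3.87, so its lower level was deeper in the Asbt+/+ pair. Il17a had a difference of -0.08 and Ccr9 of 0.05, and neither was called. Gata3, the type 2 master regulator, had 231 and 26.3 CPM in the Asbt+/+ pair against 155 and 125 CPM in the Asbt-/- pair. Prdm1, which encodes Blimp-1, had 3, 63, 222 and 86 counts and Il21, a cytokine of helper cells, had 1, 101, 238 and 215. Of 11 tested multidrug transporter genes, 4 passed with a more negative effect in Asbt-/- hosts, beside 22.2% of all tested genes, among them Abca7 with 13 and 62.3 CPM in the Asbt+/+ pair and 82.2 and 32.5 CPM in the Asbt-/- pair, and Abcc5 with 0, 50, 46 and 27 counts.

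The 8 calls with the largest fitted difference in each direction rested on libraries at 0. More positive in Asbt-/- hosts were Maoa, Zfp58, Nlrp1b, Perp, Sh3bp5l, Vegfa, Cdk16 and Chek2, and more negative were Atp5s, Uxs1, Agr2, Arl6, Slc15a4, Rab11fip2, Zfp748 and B3gntl1. Of these 16, 15 had 0 counts in at least 2 of the 4 small intestine libraries, so their fitted differences depend on the prior count. Uxs1, which makes UDP-xylose, had 0, 35, 40 and 0 counts, and Vegfa, the vascular growth factor, had 60, 0, 1 and 31. In both directions the libraries with counts were those of opposite hairpin labels in the 2 hosts.

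Against spleen, 0 of 10000 genes (0%) passed the edgeR test of a hairpin effect that differed between tissues, and 170 had an unadjusted p under 0.05. DESeq2 called 1, Ifitm1, with 52.8, 43.6, 81.8 and 53.9 CPM in small intestine and log2 spleen ratios of 4.99 and 2.37. The genes with the smallest edgeR p were Bbip1, Ccl1, Magoh, Rbbp4 and Med28 with a higher, and Ifitm1, Il17f, Dtwd2, Nfic and Nradd with a lower effect in small intestine. Ccl1 had 909 and 456 CPM in the Asbt+/+ pair and 282 and 474 CPM in the Asbt-/- pair, while its spleen ratios were -3.39 and -3.05. Of the 619 genes higher in both intestinal pairs, 28 (4.52%) were at least 2-fold higher in both spleen pairs, beside 2.12% of all tested genes. Of the 387 lower genes 13 (3.36%) were lower in both spleen pairs, beside 1.94%. Spread over genes was narrower in spleen, with SDs of 0.80 and 1.02 for the log2 ratios of the 2 pairs.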

How the data were processed

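RNA of sorted CD4+ T cells was made into libraries with the SMART-Seq v4 kit and a NEBNext Ultra II kit, per the labels' protocols. The authors deposited a table of unnormalized counts, whole reads for each gene and library. TopHat, HTSeq and DESeq2, with build mm9, are named per the submitters' processing notes; their versions, the annotation and the strand setting were not given in the sources used here. Near-identical, overlapping and antisense genes are therefore uncertain. The hairpin was taken from the titles, because another label, for the retrovirus, gives the Mdr1 hairpin throughout.

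Of 37411 genes, 17570 had a count, and filterByExpr kept 10000 (99.52% of counts). TMM-scaled counts of all 8 libraries were fitted with the edgeR 4.0.16 quasi-likelihood model (R 4.3.3), with host and hairpin effects within each tissue and 2 residual degrees of freedom. The host difference used a separate level for each small intestine library. Benjamini-Hochberg adjustment ran over all tested genes at 0.05. SEs of edgeR log2 fold changes are approximate, derived from the size of the fold change and the root of its F statistic. Pair ratios, on log2 CPM and a prior count of 2, were not tested. Folds against 0 use a floor of 3 counts per library. Ratio intervals are exact conditional 95% intervals. Transcript lengths are the longest GENCODE vM21 transcript per symbol (97.2% of tested genes); promoters are RefSeq GRCm38.p6.

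Alternatives were DESeq2 1.42.0, limma-voom (limma 3.58.1), other size factors, no filter, other priors and folds, fits without single libraries, and, chosen after seeing the data, centred and length-corrected ratios. The scripts were tested on simulated data.

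The members and gene lists were chosen with earlier results of these data known. Named genes were 13 always reported, the 5 smallest p per direction where fewer than 10 passed, up to 8 per direction where more did, up to 12 same-way and 6 opposite-way genes per direction with at least 100 counts, without unnamed gene models and antigen receptor segments, and up to 4 genes per list past 2-fold in both pairs. Other genes were named after their values were seen.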

Additional observations from a re-analysis of the deposited data

Results flagged for a closer look

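The effect of the hairpin differed between Asbt-/- and Asbt+/+ hosts for 3174 genes by the edgeR test of the difference itself, in a fit whose residual degree of freedom rests on the spleen libraries. The values below are the log2 hairpin effect in Asbt-/- minus that in Asbt+/+ hosts for the named genes among those calls, with libraries taken as labelled. A more positive effect in Asbt-/- hosts was fitted at 16.45 for Maoa, 15.41 for Zfp58, 15.31 for Nlrp1b, 14.03 for Perp, 13.97 for Sh3bp5l, 13.46 for Vegfa, 13.43 for Cdk16, 13.23 for Chek2, 13.04 for Rap2a, 12.12 for Ifitm6, 10.32 for Mptx1, 9.15 for Apmap and 6.55 for Slc10a7. A more negative effect was fitted at -17.02 for Atp5s, -16.76 for Uxs1, -16.76 for Agr2, -16.24 for Arl6, -16.10 for Slc15a4, -15.92 for Rab11fip2, -15.52 for Zfp748, -15.47 for B3gntl1, -13.84 for Tmem161b, -12.89 for Caml, -11.49 for Vti1b, -10.77 for Ciapin1, -10.43 for Cxcl5 and -8.95 for Ninj1. Of these genes, 12 had been chosen for opposite ratios in the 2 pairs, so their values are a description. Most of these genes had 0 counts in 1 or more of the 4 libraries, so the size of a difference depends on the prior count. The counts themselves stand in the report for the genes it describes. Among the 8 largest in each direction, DESeq2 did not call Nlrp1b, Perp, Vegfa, Cdk16, Chek2 or Agr2. Of the same genes, limma-voom did not call Cdk16 or Chek2.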

How the results depend on the processing

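Libraries were paired by host, which is a term of the fit. The labels give no replicate numbers for any further pairing. For the hairpin in small intestine, DESeq2 called 26 genes and the 4 libraries alone 2, against 0. Leaving out 1 small intestine library gave 836 to 3773 calls for the hairpin and 523 to 2919 for the tissue difference (DESeq2 called 1), because the residual degrees of freedom then all lie in spleen and the lone intestinal library is assumed to vary like them. The host difference fell from 3174 calls to 960 with DESeq2 and 1608 with limma-voom. For another quantity, a host difference common to both tissues, edgeR had 0 calls. Of the pair counts in the order both higher, both lower, Asbt+/+ higher and Asbt-/- lower, and the reverse, a prior count of 10 gave 313, 207, 378 and 163, and a 4-fold threshold 126, 104, 269 and 47. At least 100 counts (6589 genes) gave 242, 238, 253 and 200, and the length trend gave 459 for the last. With 1 library left out, the fitted log2 hairpin effect changed sign for Ifng (-0.79 to 1.31, negative without an Asbt+/+ library) and, without an Asbt-/- library, for Abcb1a (-1.17 to 0.83), Abcb1b (-0.747 to 0.0687) and Hmox1 (-7.26 to 3.59). Over all genes and alternatives together, the other single-gene hairpin values kept their sign. With other size factors, no filter or limma-voom, none passed the threshold. Fits without 1 small intestine library put some past it, with the residual degrees of freedom all in spleen. Counts under 100 and libraries at 0 limit the precision of single ratios.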
